A study of Mus musculus with 2 samples.

Results

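Alveolar-type fibroblasts were 131 of the 4071 lung cells kept from 2 single-cell libraries: 87 of 2745 cells in the wild-type library (WT, 3.17%, 95% interval 2.55 to 3.89) and 44 of 1326 cells in the knockout library (KO, 3.32%, 2.42 to 4.43). These counts include 19 WT and 2 KO cells rich in alveolar type 2 epithelial transcripts, described below. Without them 68 of 2745 WT and 42 of 1326 KO cells remained, so the 2 shares are not alike in make-up. A cell was a member when at least 3 of the 6 marker genes Inmt, Mfap4, Ogn, Pdgfra, Hsd11b1 and Tcf21 had a UMI (a counted RNA molecule). Its UMIs of Inmt, Mfap4, Pdgfra and Hsd11b1 together had to reach those of the adventitial genes Clec3b, Mfap5, Serpinf1 and Fbln1, with at most 2 UMIs of the contractile genes Myh11, Cnn1 and Actg2 and at most 2 of the endothelial genes Cdh5, Pecam1 and Cldn5. The members were thus chosen by their measured transcripts, so the levels of these genes and contrasts with other classes are given as descriptions and none was tested.

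Lungs of C57BL/6J mice aged 10 to 12 weeks gave 1 library labelled WT and 1 labelled KO, and the series is titled after the vascular disorder HHT2 (hereditary hemorrhagic telangiectasia, type 2), in which capillary beds are replaced by fragile direct links of artery and vein. Both were sorted for VE-cadherin, a junction protein of endothelial cells, and against CD45, a leukocyte surface protein, and both are labelled as lung endothelial cells, so the sort can set how many fibroblasts were seen. The deleted gene, any Cre driver and the number of animals per library are not given in the sources used here. With 1 library per group no difference has a replicate check. Levels carry exact Poisson 95% intervals, shares of cells Clopper-Pearson ones and ratios exact conditional binomial ones, and all of them cover counting error only.

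Alveolar fibroblasts lie in the walls of the air sacs, beside the capillaries and the alveolar type 2 (AT2) epithelial cells that make surfactant. They are known for building the elastic fibres of the alveolar wall, for storing lipid and retinoid, and for supplying growth factors to the epithelium. Adventitial fibroblasts, the most similar class, sit in the connective tissue cuffs around larger vessels and airways.

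The rule also took in cells rich in AT2 transcripts, which has to be known before any level is read. In 19 WT and 2 KO members the 8 AT2 markers Sftpc, Sftpb, Sftpa1, Sftpd, Lamp3, Slc34a2, Cxcl15 and Lyz1 held 6.42% to 30.9% and 21.4% to 26.0% of all UMIs. In the other 68 WT and 42 KO members they held 0.131% to 1.92% and 0.0551% to 1.41%, and no member lay between. The medians were 24.5% in the 857 WT and 24.2% in the 598 KO AT2-type cells, so the data go against the fibroblast label in these 21 members. They had a median of 10 UMIs of the 6 markers in WT and 17.5 in KO, against 92.5 and 85.5 in the other members. Of the 3 fibrillar collagen genes Col1a1, Col1a2 and Col3a1 they held a median of 1 and 2 UMIs, against 40.5 and 40. They supplied 41.1% of the members' UMIs in WT and 13.9% in KO, which makes them a part of every level summed over all members.

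**Figure D1:**
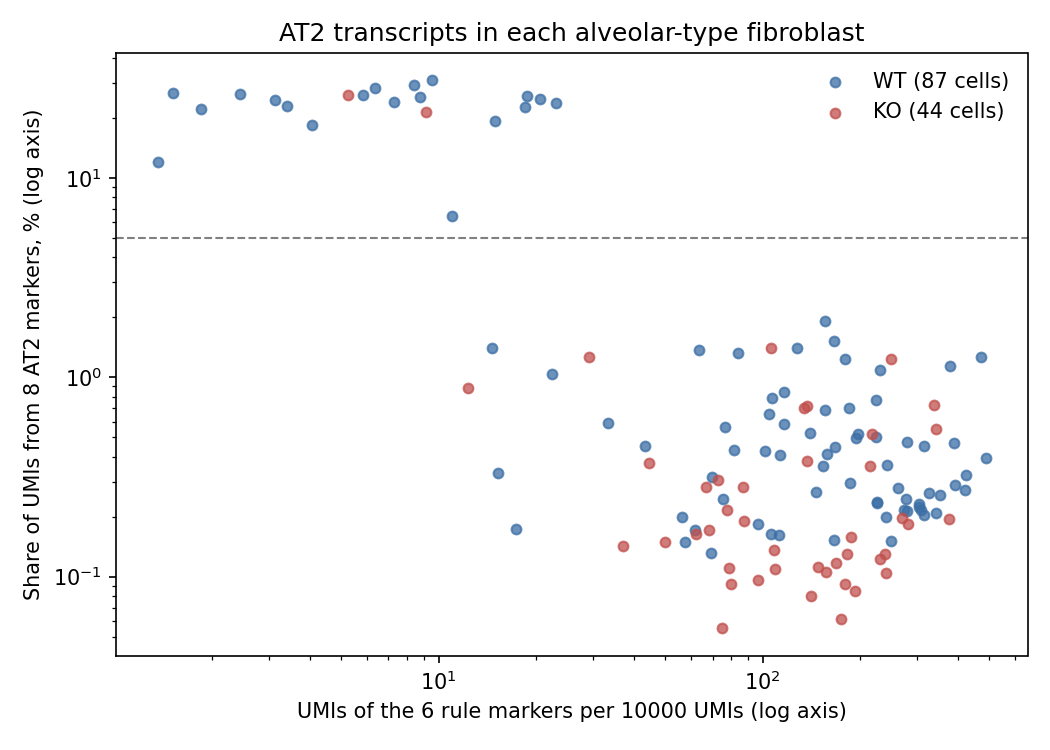
Each point is 1 of the 131 alveolar-type fibroblasts, with the UMIs of the 6 rule markers per 10000 UMIs on the horizontal log axis and the percent of UMIs from the 8 AT2 markers on the vertical log axis, WT in blue and KO in red. The 21 cells above the dashed line at 5% stand apart, with few marker UMIs, and 19 of them are WT.

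The 5% limit was chosen after the data had been seen. Levels below are those of the 110 members without AT2-rich cells, WT before KO, and for the main genes the KO over WT ratio over all 131 stands beside them. Of the 15 WT members that met the rule with exactly 3 markers 10 were AT2-rich, and of 59 WT cells just outside the rule with 2 markers 45 were. In KO these counts were 0 of 5 and 9 of 15. Members just inside had a median of 6 marker UMIs in either library, and cells just outside 2 in WT and 3 in KO. At the other limits, 36 WT and 7 KO members had 1 or 2 endothelial UMIs and 3 and 0 cells just outside had 3 or 4, and 7 and 0 members had 1 or 2 contractile UMIs and 1 and 3 cells just outside had 3 or 4. In 55 WT and 33 KO cells the adventitial sum alone kept them out. Among the members without AT2-rich cells, 44 of 68 WT and 25 of 42 KO cells carried all 6 markers. In each library 5 of them carried just 3. The lowest count of marker UMIs in a cell was 6 in WT and 3 in KO, so the label rests on few UMIs in some of these cells too. Scrublet called 1 WT and 0 KO members as doublets and none of the 21 AT2-rich cells, and no member shared its barcode with a cell of the other library.

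The 110 members carried the listed markers of alveolar fibroblasts, which follows in part from the rule. The list includes the 6 genes by which the members were chosen, so its sums describe the choice and do not test the name. The 16 listed markers summed to 30743 CPM (UMIs of the gene per 1000000 UMIs of the class) in WT cells and 21247 CPM in KO cells, against 4128 and 3391 CPM in adventitial-type fibroblasts and 1958 and 1801 CPM in smooth muscle-type cells. With AT2-rich cells included the sums were 18942 and 18613 CPM. All 6 leukocyte markers were at 0 in either library, as were 4 of 5 mesothelial markers and Lgr6 and Fgf18 of the 6 ductal myofibroblast markers. The 12 adventitial markers summed to 4439.5 and 5035 CPM. At least 3 of them were seen in 48 of 68 WT members but in 15 of 42 KO members, so the share of cells went the other way from the sums. The 7 pericyte markers summed to 417 and 116 CPM, the 6 smooth muscle markers to 375 and 816 CPM and the 7 endothelial markers to 279 and 173 CPM. In KO, Myh11, Cnn1, Actg2, Pecam1, Cox4i2 and Trpc6 of these lists were at 0. Of these, the rule had capped Myh11, Cnn1, Actg2 and Pecam1.

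Sex differed between the libraries more than depth did. Members held 832 to 23547 UMIs in WT (773748 in all, median 8370) and 1031 to 28614 in KO (361836 in all, median 7239.5), and without AT2-rich cells the medians were 6849.5 and 6852. Among these 110, 56 WT members had Xist alone, the transcript of the inactive X, and none had a Y-linked UMI. In KO, 9 had Xist alone, 19 had Y-linked transcripts alone, and 14 had neither, as did 12 in WT. Each KO over WT contrast was therefore repeated for the 9 female-type and the 19 male-type KO cells against the 56 WT cells with Xist.

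A gene was counted as higher or lower in KO at 1.5-fold or more with intervals apart, and only genes whose mean level reached 50 CPM were compared. Over all members 329 of 3260 genes (10.1%) were higher and 211 (6.47%) lower in KO, and without AT2-rich cells 192 of 3434 (5.59%) were higher and 272 (7.92%) lower. These shares are the background for the list counts below, each for its own set of members. The sets overlapped in part: 151 higher genes were shared, which is 45.9% of the first and 78.6% of the second list, and 91 lower genes, 43.1% and 33.5%. Of the 211 lower over all members, 113 stood more than 2 times as high in WT AT2-type cells as in the members without AT2-rich cells. Among the 110, female-type KO cells had 147 of 3489 genes (4.21%) higher and 164 (4.70%) lower than WT, and male-type KO cells 217 of 3476 (6.24%) higher and 232 (6.67%) lower. The 2 sets held 84537 and 177542 UMIs, and fewer UMIs widen the intervals, so these counts cannot be compared with each other. WT had no male-type cells, so sex and genotype cannot be told apart in the male-type contrast. Scaling by the median of gene ratios in place of the class total gave 262 higher and 248 lower over all members. Of the genes named below as higher or lower without AT2-rich cells, those that did not pass, or lay under the 50 CPM limit, over all members were Mfap4, Npnt, Efemp1, Loxl2, Tpm4, Zyx, Acvrl1, Id2, Junb, Errfi1, Igf1, Ier2, Nr4a1, Klf2, Btg2, Serpinh1, Pdgfrb, Fgfr3, Nfil3, Adh1, Lrat, Fmo1 and G0s2.

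Of 22 measured genes of the alveolar fibroblast identity list, 9 were lower and 1 higher, beside a background of 7.92% and 5.59%, with a median log2 ratio of -0.63 against -0.01 over all genes. Over all members the list had 6 lower and 5 higher and a median of -0.10 against 0.08. List counts here and below keep genes of the membership rule, such as Tcf21 in this list. Their levels follow in part from the choice of cells. Without AT2-rich cells, none of the genes of this list that passed was a gene of the rule. Among the genes of the rule, Inmt, an indolethylamine methyltransferase, stood at 6691 CPM (6456 to 6933) in WT cells and 4541 CPM (4307 to 4784) in KO cells. Mfap4, a protein bound to elastic fibres, stood at 6386 and 3680 CPM, a ratio of 0.576 (0.820 over all members). Pdgfra, the receptor of PDGF-A, stood at 1705 and 1522 CPM, Ogn, a small leucine-rich proteoglycan, at 2122 and 1631 CPM, and Hsd11b1, which reactivates glucocorticoid, at 1791 and 1574 CPM. Tcf21, a transcription factor of lung mesenchyme, stood at 772 and 825 CPM. Of these 6 only Mfap4 passed 1.5-fold with intervals apart without AT2-rich cells, and only Tcf21, higher in KO at 1.53, over all members.

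Several secreted and metabolic markers that the rule did not use stood further apart. Ces1d, a carboxylesterase of lipid droplets (GRCm38, chromosome 8, 93166068 to 93197838, minus strand), stood at 1064 CPM (972 to 1163) in WT cells and 199 CPM (153 to 255) in KO cells, a ratio of 0.187 (0.330 over all members). Its UMIs can be shared with near-identical carboxylesterase copies, which makes its level uncertain. Slc7a10, a transporter of small neutral amino acids, stood at 226 CPM in 36 of 68 WT cells and 19.3 CPM in 5 of 42 KO cells, a ratio of 0.0852 (0.0306 to 0.192, and 0.121 over all members). Cxcl14, a chemokine, stood at 1231 CPM (1131 to 1337) in WT cells and 308 CPM (249.7 to 376) in KO cells, and over all members its ratio was 0.368. In adventitial-type fibroblasts Cxcl14 stood the other way, at 14.4 CPM in WT cells and 192 CPM in KO cells.

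Wnt2, a growth factor for lung epithelium, stood at 195 and 57.8 CPM, Scube2, a secreted EGF-like protein, at 410.4 and 96.3 CPM, and Col13a1, a transmembrane collagen, at 472 and 170.2 CPM. Npnt, an integrin ligand of basement membranes, stood at 4134 CPM (3950 to 4325) and 2213 CPM (2051 to 2384), a ratio of 0.535, and over all members, at 2621 and 1965 CPM, it did not pass 1.5-fold. These lower levels held in both sexes of KO cells for Ces1d, Slc7a10, Cxcl14, Scube2, Col13a1 and Npnt. For Wnt2 the intervals overlapped in female-type cells (log2 -1.40). Limch1, an actin-binding protein, and Itga8, the receptor chain for nephronectin, stood at 2785 and 3651 CPM and at 939 and 751 CPM and did not pass. Limch1 was higher in KO over all members, with a ratio of 1.86, and without AT2-rich cells in male-type KO cells (log2 0.65).

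**Figure D2:**
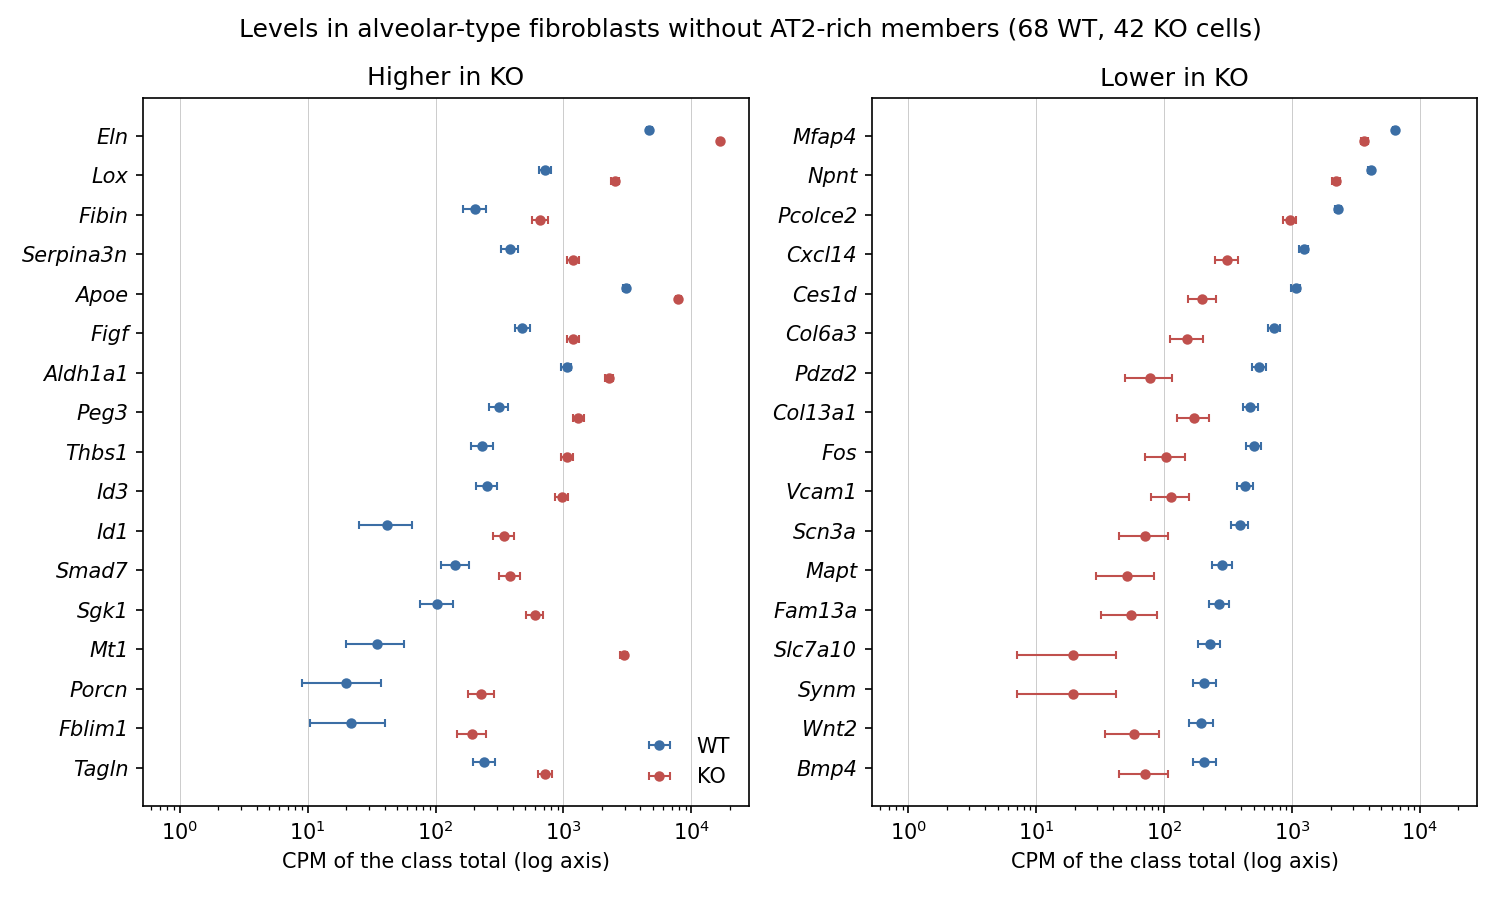
Levels of 34 genes in the 110 members without AT2-rich cells, on a log axis of CPM of the class total, WT in blue and KO in red, with exact 95% Poisson intervals for counting error. Genes of the left panel, led by Eln at 4677 and 16693 CPM, stood higher in KO, and those of the right panel, such as Ces1d at 1064 and 199 CPM, lower. Ccl2 is not drawn since its WT level was 0.

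Elastin and its crosslinking enzyme were both higher in KO. Eln, the core of the elastic fibre (chromosome 5, 134702593 to 134747323, minus strand), stood at 4677 CPM (4480 to 4879) in WT cells and 16693 CPM (16242 to 17153) in KO cells, a ratio of 3.57 (3.39 to 3.76, and 5.18 over all members). Per cell it ranged in WT from 0 to 298 UMIs per 10000, with a median of 35.1, and in KO from 0 to 608, with a median of 144, so that the cells overlapped while the middle of the KO cells lay above the upper quartile of WT, 56.1. Lox, the lysyl oxidase that crosslinks elastin and collagen, stood at 715 CPM (639.9 to 797) and 2521 CPM (2348 to 2704), a ratio of 3.52 (4.96 over all members). Both were higher in female-type (log2 1.79 for Eln and 1.78 for Lox) and in male-type KO cells (2.03 and 2.05). The same genes stood higher in KO in adventitial-type fibroblasts (log2 1.35 and 1.83) and in smooth muscle-type cells (1.40 and 1.24).

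The rest of the elastic fibre list did not follow. Of its 16 measured genes only Eln and Lox were higher, and Mfap4, the fibulin Efemp1 and the lysyl oxidase relative Loxl2 were lower. Mfap4 is a gene of the membership rule. By sex, Mfap4 was lower in both sexes of KO cells, Loxl2 passed in female-type cells alone and Efemp1 in neither. The background was 5.59% higher and 7.92% lower, and the list median was 0.08. Fbn1, the fibrillin of microfibrils, stood at 656 and 861 CPM and Mfap2, which binds it, at 63.6 and 99.6 CPM, neither past 1.5-fold with intervals apart, though both passed over all members (ratios 1.91 and 2.29). Over all members 5 of 15 genes were higher, 0 were lower and the median was 0.60.

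Other matrix genes went both ways. Of 31 measured collagen and fibrillar matrix genes 6 were higher and 12 lower, beside the background of 5.59% and 7.92%. Their median was -0.04 (14 and 7 of 30, and 0.52, over all members). The 6 include Dcn (log2 1.56 in female-type and -0.97 in male-type KO cells) and Timp1 (-1.11 and 3.18), whose directions differed between the sexes of KO cells, so 4 stood without them. The basement membrane collagens Col4a1 and Col4a2 stood at 742 and 1789 CPM and at 496 and 1024 CPM, and Fn1, fibronectin, at 1532 and 3147 CPM. Thbs1, a matricellular protein that binds latent TGF-beta, stood at 230.4 CPM (188 to 279) and 1063 CPM (952 to 1184), with 29.0% of the KO UMIs in 1 cell. The fibrillar collagens did not pass: the ratio was 1.08 (0.988 to 1.17) for Col1a1, at 2759 and 2971 CPM, 1.01 (0.927 to 1.11) for Col1a2 and 0.971 (0.896 to 1.05) for Col3a1. Over all members Col1a1 passed with a ratio of 1.56.

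Lower in KO were Col6a3, a chain of beaded-filament collagen VI, at 719.8 CPM (644 to 802) and 151 CPM (111 to 201), and Pcolce2, which aids procollagen cleavage, at 2285 and 960.2 CPM. Sparcl1, an anti-adhesive matrix protein, stood at 1038 and 389 CPM, with 46.3% of its KO UMIs in 1 cell, and Prelp, a proteoglycan, at 1001 and 328 CPM. Col6a3 was lower in female-type (log2 -2.93) and in male-type KO cells (-2.67). Synm, an intermediate filament protein, stood at 206 and 19.3 CPM. Timp1, an inhibitor of metalloproteinases, stood at 24.1 and 148 CPM, but 76.1% of its KO UMIs lay in 1 cell and in female-type KO cells its log2 ratio was -1.11. Dcn, the proteoglycan decorin, had 41.1% of its WT and 41.0% of its KO UMIs in 1 cell and log2 ratios of 1.56 in female-type and -0.97 in male-type KO cells, so no direction was read.

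Among contractile genes, 3 of 13 were higher (Tagln, Tpm4 and Itgb1) and 1 lower (Zyx) in KO, beside the background of 5.59% and 7.92%. Tpm4 passed in male-type KO cells alone, and the others in both sexes. Their median was 0.25 (5 and 0 of 11, and 0.57, over all members). Tagln, transgelin, stood at 239 CPM (196 to 289) in WT cells and 719 CPM (628 to 820) in KO cells, a ratio of 3.01 (4.43 over all members). Itgb1, the common integrin beta chain, stood at 674 and 1114 CPM. Fblim1, a filamin-binding adaptor of adhesion sites that is not in this list, stood at 21.9 and 193 CPM. Tagln is also a smooth muscle marker, and the summed smooth muscle markers moved with it (375 and 816 CPM), while Myh11, Cnn1 and Actg2 were at 0 in KO. The membership rule capped those 3 genes at 2 UMIs a cell. What part such cells had in it was not tested.

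Targets of BMP and TGF-beta receptors were among the genes that stood highest over WT. The sources do not name the deleted gene. In patients HHT2 is linked to ACVRL1, whose product ALK1 is a receptor for circulating BMP ligands. Acvrl1 (chromosome 15, 101128522 to 101145336, plus strand) stood in the members at 103 CPM (75.8 to 137, 47 UMIs) in WT cells and 45.0 CPM (24.6 to 75.4, 14 UMIs) in KO cells, against 1283 and 979 CPM in endothelial cells. In adventitial-type, smooth muscle-type and AT2-type cells it stood at 89.1 and 76.8, 62.0 and 48.2, and 17.7 and 3.60 CPM. In female-type KO members the log2 ratio to WT was -0.17 and in male-type ones -1.92. Over all members it stood at 68.5 and 38.7 CPM with overlapping intervals, and a 3' tag does not show whether another part of the gene was deleted.

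Of 8 measured BMP and TGF-beta target genes 5 were higher and 2 lower, beside the background of 5.59% and 7.92%. The median log2 ratio was 1.68 against -0.01 over all genes (4 and 1, and 1.21, over all members). Id1, an inhibitor of differentiation factors and a direct BMP-SMAD target (chromosome 2, 152736251 to 152737410, plus strand), stood at 41.7 CPM (25.1 to 65.1) in WT cells and 340.4 CPM (279 to 412) in KO cells, a ratio of 8.16 (4.98 to 14.1, and 8.48 over all members). It was seen in 12 of 68 WT and 25 of 42 KO cells. Id3, its relative (chromosome 4, 136143497 to 136145755, plus strand), stood at 250.2 CPM (206 to 301) and 969.8 CPM (864 to 1086), a ratio of 3.88 (5.53 over all members), in 33 WT and 36 KO cells. Against WT both stood above in female-type (log2 3.12 and 1.82) and in male-type KO cells (3.28 and 2.07).

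Levels of Id1 and Id3 in the other classes were as follows. In adventitial-type fibroblasts Id1 stood at 179.6 CPM in WT cells and 70.2 CPM in KO cells and Id3 at 1016 and 652 CPM. In smooth muscle-type cells they stood at 201 and 185 CPM and at 851 and 803 CPM, in endothelial cells at 594 and 603 CPM and at 1114 and 719 CPM. In AT2-type cells they stood at 32.9 and 82.3 CPM and at 21.3 and 58.6 CPM. The difference between classes was not tested, since each has 1 library per group. Drawing 1500 UMIs from each cell, for which 4 WT and 6 KO members were too shallow, an Id1 UMI was found in 4.69% of WT and 33.3% of KO members and an Id3 UMI in 10.9% and 63.9% (unthinned 17.6% and 59.5%, and 48.5% and 85.7%). Over all members, from a random draw of their own, the thinned shares were 3.61% and 23.7% for Id1 and 20.5% and 65.8% for Id3, and such shares moved between draws in this few cells. The thinned shares of AT2-type cells, at median depths of 17188 and 19518 UMIs before thinning, were 3.82% and 11.1% for Id1 and 4.19% and 7.48% for Id3, so the WT share of Id1 in members lay near that background.

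Smad7, the inhibitory SMAD that these receptors induce, stood at 143 CPM (110.1 to 182) and 379 CPM (314 to 454), a ratio of 2.66 (3.28 over all members). Id2 stood at 19.8 and 86.7 CPM, though over all members at 159 and 141 CPM. The kinase gene Sgk1, given with the glucocorticoid genes below, completes the higher ones. The lower targets were Ctgf, a matricellular protein, at 757 and 257 CPM, and Junb, an AP-1 subunit, at 584 and 373 CPM. Ctgf stood the other way in adventitial-type (log2 2.46), smooth muscle-type (2.16), endothelial (2.91) and AT2-type cells (1.25). Among 17 pathway components 1 was higher, Fstl1, a secreted BMP modulator, and 2 were lower, Acvrl1 and Bmp4, shares near the background of 5.59% and 7.92%. Over all members 4 of 14 were higher (Tgfbr2, Tgfbr3, Bmp3 and Fstl1) and Bmp4 was lower. Bmp4, a ligand of the pathway, stood at 206 CPM (167 to 252) and 70.7 CPM (44.3 to 107), a ratio of 0.342 (0.458 over all members), and was lower in both sexes of KO cells.

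Among the named genes with UMIs in both libraries the widest ratios were those of Mt1 and Mt2, metallothioneins that bind zinc and copper, which lie side by side on chromosome 8. Mt1 (94179082 to 94180327, plus strand) stood at 35.1 CPM (20.1 to 57.0) in WT cells and 2967 CPM (2779 to 3165) in KO cells, a ratio of 84.5 (51.8 to 148, and 44.3 over all members). It was seen in 6 of 68 WT and 28 of 42 KO cells, and 1 KO cell held 40.9% of the KO UMIs. Mt2 (94172664 to 94173568, plus strand) stood at 4.39 CPM, from 2 UMIs, and 1069 CPM, with 55.6% of the KO UMIs in 1 cell. Its ratio was 244 (66.9 to 2020), and 13.2 over all members, where 1 AT2-rich WT cell held 92.6% of the WT UMIs. At 1500 UMIs a cell an Mt1 UMI was found in 3.12% of WT and 58.3% of KO members (unthinned 8.82% and 66.7%), against 15.9% and 32.8% of AT2-type cells. Leaving out the highest cell of each library gave log2 ratios of 6.83 for Mt1 and 7.76 for Mt2. This took out the highest WT cell as well, and the 2 WT UMIs of Mt2 lay in 2 cells. Both ratios thus rest on few WT UMIs and do not show the effect of the highest KO cell alone. Both stood higher in KO in each other class as well: in adventitial-type fibroblasts by 4.68 and 5.76 on the log2 scale, in smooth muscle-type cells by 1.44 and 2.75, in endothelial cells by 1.62 and 3.17, and in AT2-type cells by 1.02 and 1.51.

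Metallothionein genes are known to be induced through metal response elements, which MTF1 binds, and through glucocorticoid. The promoter windows of the pair are shown because these genes moved together and lie next to each other. They run from 250 bases before to 50 after the RefSeq start (GRCm38.p6, plus strand, 5′ to 3′, chr8:94178839-94179138 for Mt1 and chr8:94172368-94172667 for Mt2), and capitals mark matches to the response element core TGCACNC or TGCGCNC on either strand.
Mt1: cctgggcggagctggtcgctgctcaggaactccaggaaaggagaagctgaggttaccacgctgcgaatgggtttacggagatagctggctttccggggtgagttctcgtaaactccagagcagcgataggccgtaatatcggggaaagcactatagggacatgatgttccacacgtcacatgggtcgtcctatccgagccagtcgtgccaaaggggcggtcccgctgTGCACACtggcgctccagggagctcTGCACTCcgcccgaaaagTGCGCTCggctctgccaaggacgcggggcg
Mt2: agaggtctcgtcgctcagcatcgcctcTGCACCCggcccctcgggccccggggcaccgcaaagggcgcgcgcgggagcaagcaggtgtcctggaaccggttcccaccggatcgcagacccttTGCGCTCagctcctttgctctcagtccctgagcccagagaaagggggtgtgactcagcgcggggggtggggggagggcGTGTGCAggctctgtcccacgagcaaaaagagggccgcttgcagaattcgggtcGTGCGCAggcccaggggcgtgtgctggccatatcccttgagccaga
The Mt1 window held 3 matches, all on the plus strand, and the Mt2 window 4, of which 2 were on each strand, with no overlap. Of 32851 RefSeq promoter windows of the same length 25.7% held at least 1 match, 1.97% at least 3 and 0.517% at least 4. A match describes the letters and not a bound site.

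Of 14 measured genes of the glucocorticoid response list 7 were higher in KO and 0 lower, beside the background of 5.59% and 7.92%. The median was 0.59 (7 and 0, and 0.65, over all members). Beside Mt1 and Mt2 the higher genes were Sgk1, Fkbp5, Errfi1, Pdk4 and Glul. Sgk1, a kinase that regulates ion transport, stood at 103 CPM (75.8 to 137) and 594 CPM (512 to 686), a ratio of 5.76 (7.91 over all members), with log2 ratios of 2.59 and 2.77 in the 2 sexes of KO cells. Fkbp5, a cochaperone of the glucocorticoid receptor, stood at 41.7 and 151 CPM and Glul, glutamine synthetase, at 246 and 581 CPM. Fkbp5 did not pass in female-type KO cells without AT2-rich cells, though it did with them. Without AT2-rich cells, 5 of 13 list genes were higher in female-type and 7 of 13 in male-type KO cells. Pdk4, a mitochondrial kinase, stood at 30.7 and 132 CPM but had a log2 ratio of 0.23 in female-type KO cells. In the other classes the log2 ratio of Sgk1 was 0.18 to 0.67.

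Secreted factors for the epithelium and vessels were mixed. Figf, which encodes the lymphatic growth factor VEGF-D and lies on the X chromosome, stood at 476 CPM (415 to 544) in WT cells and 1188 CPM (1070 to 1316) in KO cells, a ratio of 2.50 (3.58 over all members), with log2 ratios of 1.40 and 1.49 in female-type and male-type KO cells. Vegfa stood at 204 and 369 CPM, while Igf1 (156 and 54.6 CPM), Wnt2 and Bmp4 were lower. By sex, Vegfa passed in male-type KO cells alone and Igf1 in female-type ones alone. The list of 14 growth factors and niche ligands thus had 2 higher and 3 lower genes, beside the background of 5.59% and 7.92%. Its median was -0.07 (0.53 over all members). The IGF binding proteins Igfbp3 (410.4 and 867 CPM) and Igfbp4 (283 and 665 CPM) were higher, of 4 measured. Porcn, the enzyme that attaches the lipid WNT ligands need for secretion, also on the X chromosome, stood at 19.8 CPM (9.03 to 37.5) in 9 WT cells and 228 CPM (178 to 288) in 20 KO cells. Its log2 ratio was 3.05 and 3.95 in the 2 sexes, and -0.90 to -0.27 in the other 4 classes.

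Lipid, retinoid and detoxification genes went both ways. Of 12 measured lipid storage and uptake genes 3 were higher and 2 lower (4 and 4 of 14 over all members), of 6 retinoid genes 1 and 2 (1 and 0 of 4), and of 19 detoxification genes 4 and 3 (4 and 1 of 19), beside the background of 5.59% and 7.92%. Their medians were 0.02, -0.52 and -0.31. Apoe, the lipoprotein that carries cholesterol, stood at 3101 CPM (2941 to 3267) and 7926 CPM (7616 to 8245), a ratio of 2.56 (3.59 over all members). Per cell it ranged from 0 to 117 UMIs per 10000 in WT, with a median of 26.1, and from 3.69 to 214 in KO, with a median of 60.2. In adventitial-type and smooth muscle-type cells its log2 ratio was -0.42 and -1.04. Aldh1a1, a retinal dehydrogenase that makes retinoic acid, stood at 1056 and 2261 CPM, Fmo2, a lung monooxygenase, at 5370 and 9233 CPM, and Gpx3, a secreted glutathione peroxidase, at 2873 and 5177 CPM. Cat, catalase, was lower at 121 and 35.3 CPM, as were G0s2, an inhibitor of fat breakdown, at 1229 and 578 CPM and Scd1, a fatty acid desaturase, at 129 and 54.6 CPM. Adh1, an alcohol dehydrogenase, stood at 338 and 209 CPM, though at a log2 ratio of 0.31 in female-type KO cells. Lrat, which esterifies retinol, stood at 92.2 and 12.8 CPM and Fmo1, a monooxygenase, at 123 and 41.7 CPM. Fabp4, a fatty acid carrier that capillaries also express, stood at 39.5 and 193 CPM but only at a log2 ratio of 0.81 in male-type KO cells. Fabp5 and Fgfr2, lower in KO over all members with ratios of 0.254 and 0.473, stood at 52.7 and 51.4 CPM and at 30.7 and 51.4 CPM without AT2-rich cells.

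Of 19 measured immediate early genes, which growth signals and cell stress are known to induce, 7 were lower in KO (Fos, Junb, Egr1, Ier2, Nr4a1, Klf2 and Btg2) and Maff was higher. The background was 7.92% lower and 5.59% higher. The median was -0.28, whereas over all members 2 of 18 were lower, 4 higher and the median was 0.10. Without AT2-rich cells, female-type KO cells had 8 of 19 lower and 0 higher (background 4.70% and 4.21%), with a median of -0.77. Male-type ones had 5 lower and 3 higher (background 6.67% and 6.24%), with a median of -0.06. Nr4a1 and Btg2 passed in female-type cells alone, and Maff in male-type cells alone. Fos stood at 500.4 CPM (438 to 569.7) and 103 CPM (70.3 to 145), a ratio of 0.205 (0.276 over all members), and Egr1 at 674 and 283 CPM. Fos also stood lower in KO in the other 4 classes (log2 -2.83 to -0.94), as did Egr1 in adventitial-type (-1.14), smooth muscle-type (-1.15) and endothelial cells (-2.07).

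Of 6 measured class I antigen presentation genes 2 were lower, beside the background of 7.92% (2 of 5 over all members). They were H2-K1 at 347 and 145 CPM and H2-D1 at 1009 and 501 CPM. Their UMIs can be split among near-identical copies. Ifi27l2a, an interferon-induced gene, stood at 289.7 CPM (242 to 344) in WT cells and 35.3 CPM (17.6 to 63.2) in KO cells, where 63.6% of the UMIs lay in 1 cell, and was at 0 in female-type KO cells. Vcam1, a leukocyte adhesion molecule, stood at 428 and 112 CPM. Ccl2 and Ccl7, chemokines for monocytes, had 103 and 45 UMIs in KO, all from 1 cell with Y-linked transcripts, and 0 in WT. The ratio of Ccl2, at least 50.2-fold against a floor of 3 counts over the WT members, describes that cell alone.

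Further genes with wide differences belonged to no single role. Peg3, an imprinted zinc finger gene of growth control, stood at 312 CPM (262 to 367) and 1310 CPM (1186 to 1444), a ratio of 4.20 (5.90 over all members), with log2 ratios of 2.02 and 2.21 in the 2 sexes and 3.54 in endothelial cells. Cdkn1c, an imprinted inhibitor of the cell cycle, stood at 119 and 244 CPM, but had a log2 ratio of 0.35 with overlapping intervals in female-type KO cells. Peg3 and Cdkn1c were 2 of 6 measured genes of the imprinted list. Dcn also passed the size rule, which made 3 of 6 (4 of 6 over all members, with Grb10), but its direction was not read. Fibin, a secreted protein, stood at 204 and 655 CPM, Serpina3n, a protease inhibitor, at 379.7 and 1185 CPM, Ppp1r2, an inhibitor of protein phosphatase 1, at 524 and 1599 CPM and Rasl11a, a small GTPase, at 52.7 and 202 CPM. Lower genes were Pdzd2 (553 and 77.1 CPM), the sodium channel Scn3a (391 and 70.7 CPM), the microtubule protein Mapt (283 and 51.4 CPM), the soluble guanylate cyclase chain Gucy1a3 (244 and 48.2 CPM), Fam13a (269.9 and 54.6 CPM) and the transcription factor Snai2 (180 and 41.7 CPM, with intervals that overlapped in female-type KO cells). Etv5 and Atp8a1, lower over all members with ratios of 0.326 and 0.342, stood at 28.5 and 16.1 CPM and at 43.9 and 16.1 CPM without AT2-rich cells, with overlapping intervals.

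The remaining lists stand beside the same background of 5.59% higher and 7.92% lower over all genes. In collagen folding and crosslinking, Adamts2, a procollagen protease, stood at 382 and 764 CPM and Serpinh1, the collagen chaperone, at 590.3 and 308 CPM, 2 of 12 genes being higher with Lox and 3 lower (3 and 1 over all members). Among 18 growth factor receptors and Wnt targets Npr3, the natriuretic peptide clearance receptor, was higher at 26.3 and 122 CPM, and Pdgfrb, the PDGF receptor that pericytes share, was lower at 169 and 61.0 CPM beside the summed pericyte markers of 417 and 116 CPM. Fgfr3, an FGF receptor, was lower as well, at 211 and 86.7 CPM. Over all members 4 of 18 were higher (Fgfr1, Igf1r, Dkk3 and Npr3) and Fgfr2 was lower. Of 15 heat shock genes 2 were higher and 1 lower (3 and 0 over all members), with the small chaperone Hspb1 at 472 and 1012 CPM. Of 13 hypoxia and glycolysis genes 2 were higher and 1 lower (3 and 1 over all members), with the mitophagy receptor Bnip3 at 70.2 and 179.8 CPM. Of 8 clock genes Nfil3 was higher, at 17.6 and 86.7 CPM, and the repressor Nr1d1 was lower, at 160.2 and 48.2 CPM (0 of 5 higher and Nr1d1 lower over all members). Of 5 interferon response genes 0 were higher and 1 lower (2 and 2 over all members), Bst2, which tethers virions to the cell, at 129 and 41.7 CPM. By sex and without AT2-rich cells, Pdgfrb, Fgfr3, Nfil3 and Bst2 passed in male-type KO cells but not in female-type ones.

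**Figure D3:**
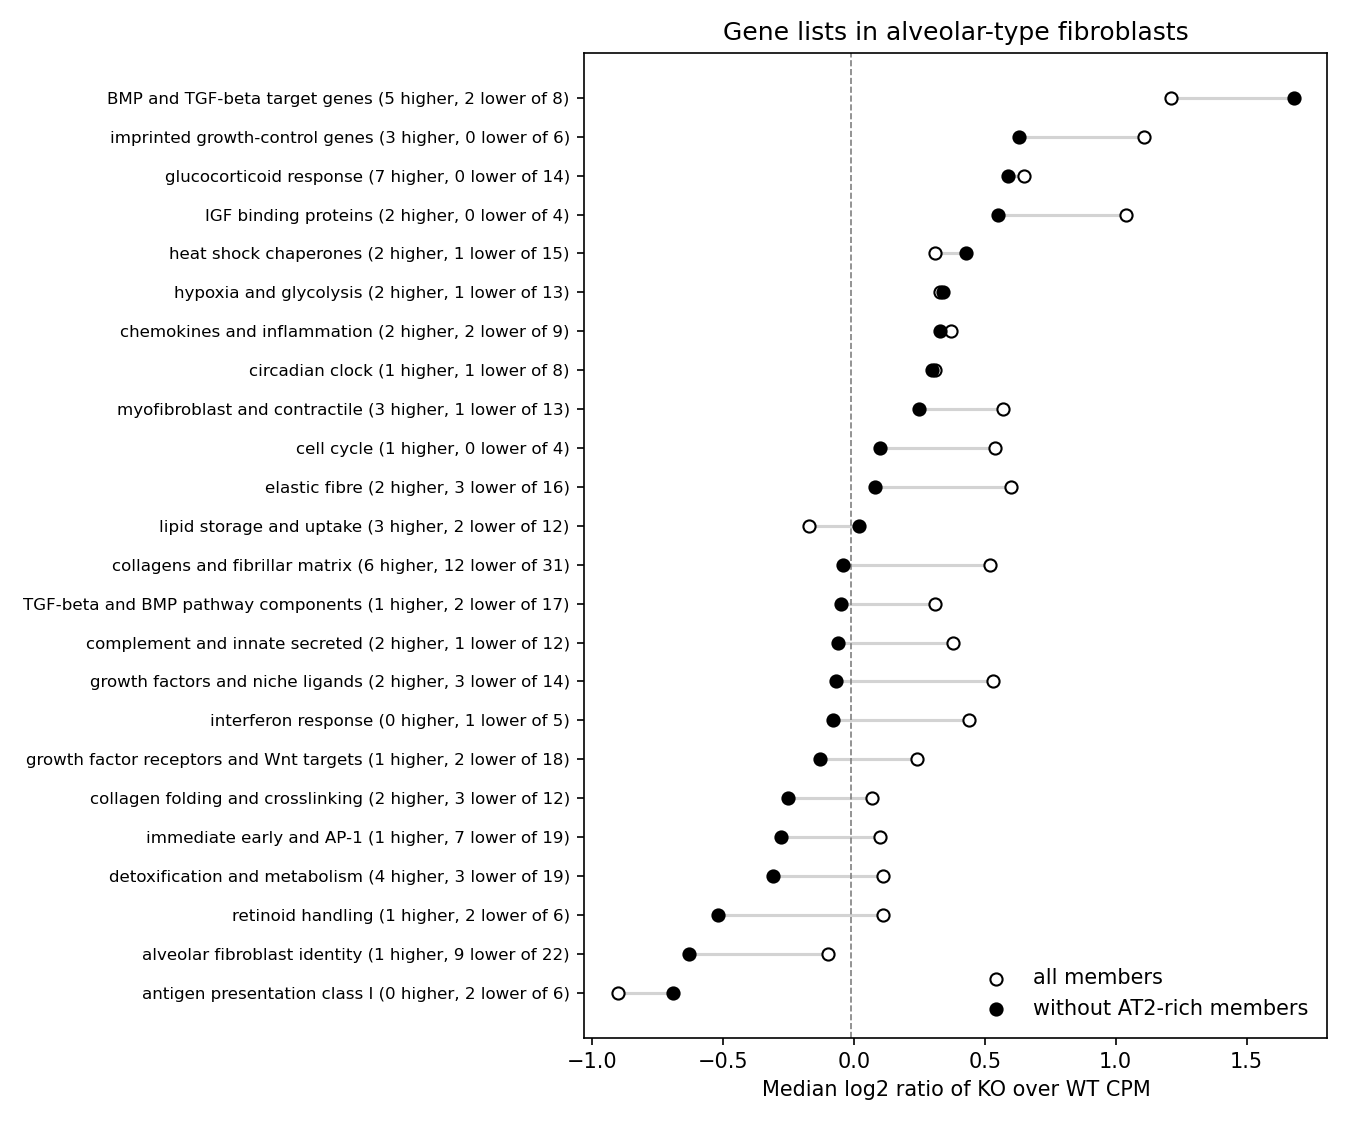
Median log2 ratio of KO over WT for 24 gene lists over genes whose mean level reached 50 CPM, with open circles for all members and filled circles without AT2-rich cells, which the counts in brackets refer to. The dashed line at -0.01 is the median over all 3434 genes without AT2-rich cells. BMP and TGF-beta target genes lie farthest to the right at 1.68 and class I antigen presentation farthest to the left at -0.69, and most matrix lists move left when AT2-rich cells are left out.

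Members of 1 library differed widely among themselves. With each cell thinned to 1500 UMIs, the genes of highest Fano factor (variance over mean) without AT2-rich cells were Dcn, Malat1, Gsn, Eln, Apod, Mgp, Mfap4 and Inmt. Dcn, a leading transcript of adventitial fibroblasts, was seen in 16 of 68 WT and 15 of 42 KO members, with up to 316 and 378 UMIs in a cell, and its Fano factor was 18.6 and 32.8. Apod, an apolipoprotein, was seen in 8 and 10 members, 1 of which held 69.1% of the WT UMIs. Over all members Lyz2, a lysozyme that AT2 cells make, led with 32.8 and 36.4, and with Mt2 it stood in place of Eln and Inmt. Mfap4 ranged from 0 to 221 UMIs per 10000 in WT and 0 to 271 in KO, with medians of 40.9 and 33.0, and Inmt from 0 to 187 and 0 to 243, with medians of 56.7 and 33.3.

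**Figure D4:**
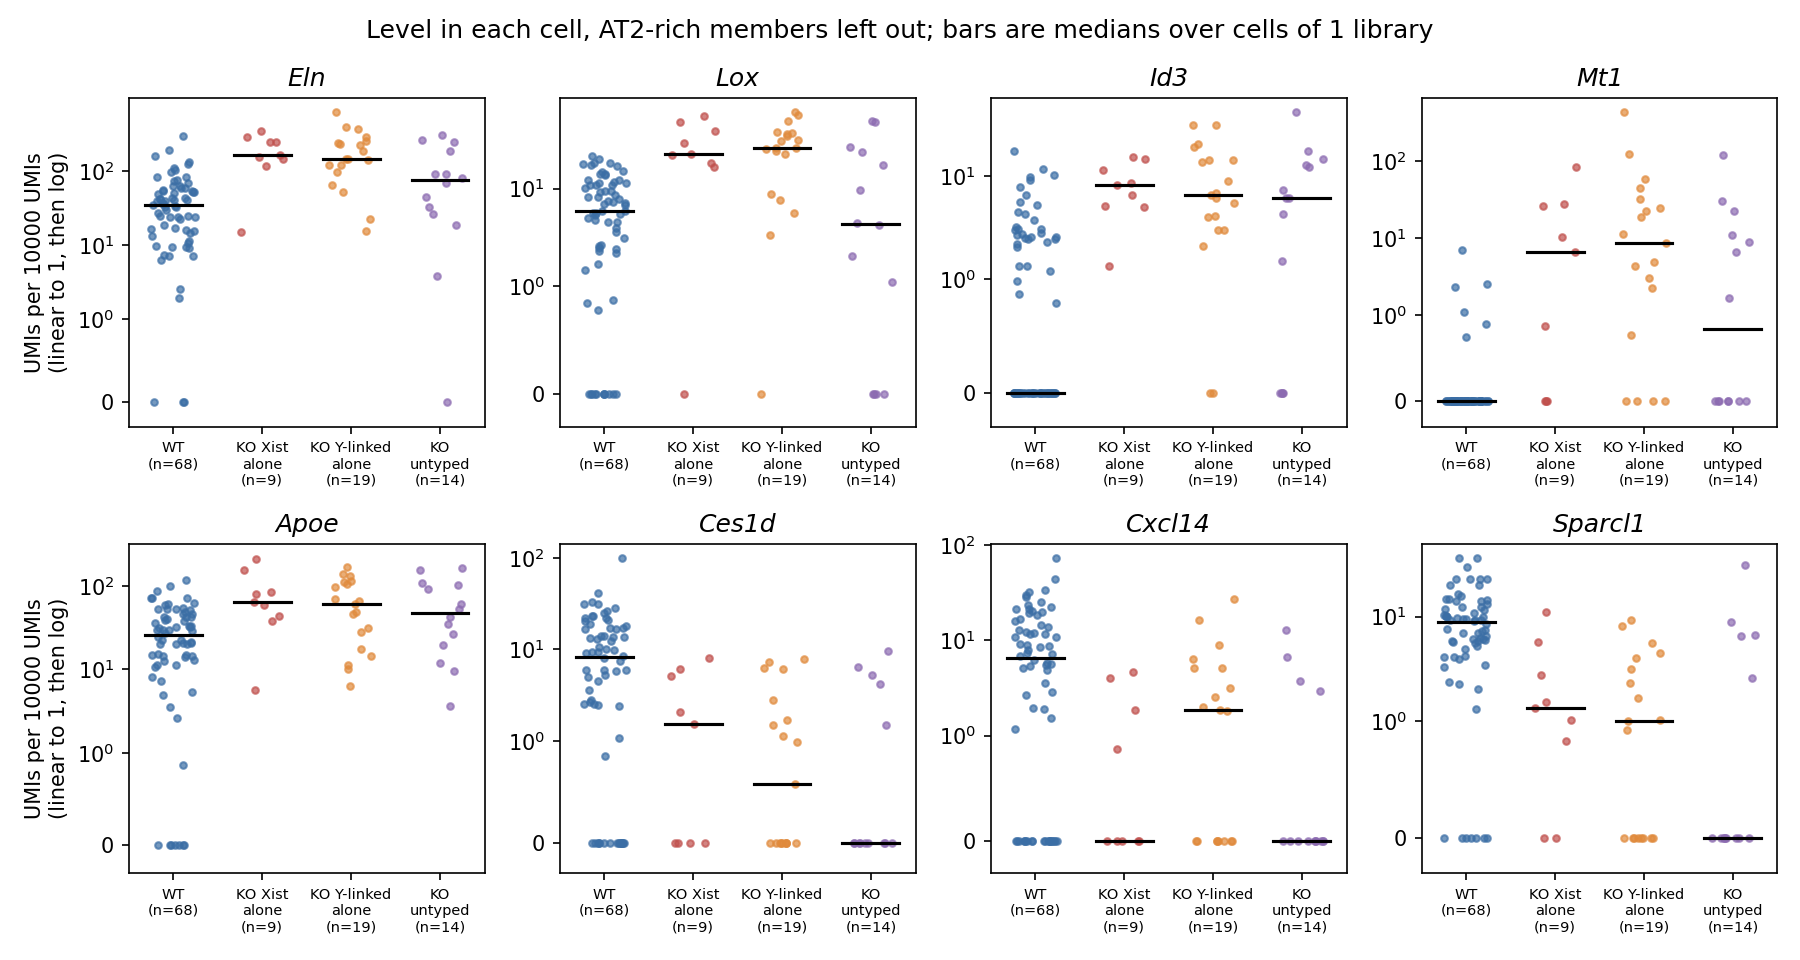
Each point is 1 of the 110 members without AT2-rich cells, with its UMIs per 10000 UMIs on an axis that is linear to 1 and logarithmic above, and bars mark medians over the cells of a group, which are not replicates. Groups are the 68 WT cells and the KO cells with Xist alone (9), with Y-linked transcripts alone (19) and with neither (14). Eln has medians of 35.1 in WT and 144 over the KO cells, with overlap of single cells, and Mt1 is at 0 in 62 WT and 14 KO cells.

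The per-cell plot shows which differences were spread over cells. Lox had medians of 5.95 UMIs per 10000 in WT and 23.2 in KO, Id3 of 0 and 6.53, Mt1 of 0 and 5.75, Ces1d of 8.25 and 0, Cxcl14 of 6.55 and 0, and Sparcl1 of 8.84 and 0.976. In each of these the ranges of WT and KO cells overlapped, since every one of these genes was at 0 in some cells of either library. Sftpc, the surfactant gene of AT2 cells, had a UMI in 100% of members and in 99.9% of WT and 98.8% of KO endothelial cells. Summed AT2 markers still stood at 3553 CPM in WT members and 1901 CPM in KO members without AT2-rich cells, and what part that difference had in other genes was not tested. Thinned to 1500 UMIs, an Eln UMI was seen in 89.1% of WT and 97.2% of KO members against 2.84% and 4.38% of AT2-type cells, and an Slc7a10 UMI in 32.8% and 5.56% against 0% and 0.182%. Over all members, from a draw of their own, the Slc7a10 shares were 15.7% and 0%, so the size of this share depended on the draw. Unthinned they were 52.9% and 11.9% without AT2-rich cells. A Ces1d UMI was seen in 59.4% and 22.2% of members and in 42.7% and 46.5% of AT2-type cells, which express the gene too. Before thinning those shares of Ces1d in members were 76.5% and 47.6%.

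Against adventitial-type fibroblasts (58 WT and 44 KO cells) the members differed in the same direction in both libraries for many genes, as the rule that chose them implies. With genes of the rule set aside, 347 of 2790 genes (12.4%) were higher and 252 (9.03%) lower in members without AT2-rich cells, and 291 (10.8%) and 273 (10.1%) of 2699 over all members. Nebl, a nebulin-like actin filament protein, stood at 514 CPM in WT members and 520.2 CPM in KO members, against 4.31 and 3.97 CPM in adventitial-type cells. Itga8 stood at 939 and 751 CPM against 11.5 and 2.65 CPM, and Npnt, its ligand, at 4134 and 2213 CPM against 48.8 and 43.7 CPM. Macf1, a linker of actin and microtubules, stood at 4736 and 3218 CPM against 152 and 135 CPM, Limch1 at 2785 and 3651 CPM against 147 and 139 CPM, and Aldh1a1 at 1056 and 2261 CPM against 30.2 and 118 CPM. Others among the 10 with the widest difference in both libraries were Col13a1, Sept4 and Gyg, and over all members S100g, which AT2-rich cells carry (857 and 547 CPM with them, 41.7 and 19.3 CPM without), stood in place of Limch1.

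Lower in members than in adventitial-type cells were Igfbp5, an IGF binding protein, at 32.9 and 22.5 CPM against 971 and 1419 CPM, and Lum, the collagen-binding lumican, at 8.78 and 35.3 CPM against 520.1 and 392 CPM. Pi16, a marker of adventitial progenitor-like fibroblasts, stood at 132 and 45.0 CPM against 922 and 645 CPM. The others were Cpz, Cd248, Itgbl1, Mmp3, Tgfbi, Fbln2 and Col14a1, with Olfml2b in place of Tgfbi over all members. Id1 and Id3 turned between libraries: the members stood below adventitial-type cells in WT (log2 -2.11 and -2.02) and above them in KO (2.28 and 0.57). Cxcl14 stood above them by 6.42 on the log2 scale in WT and 0.68 in KO, and Ces1d by 5.29 and 2.59. In KO the adventitial-type class also held mesothelial (331 CPM), airway (2806 CPM) and erythroid (2378 CPM) marker UMIs, against 0, 24.4 and 70.4 CPM in WT, and their part in these contrasts was not tested.

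**Figure D5:**
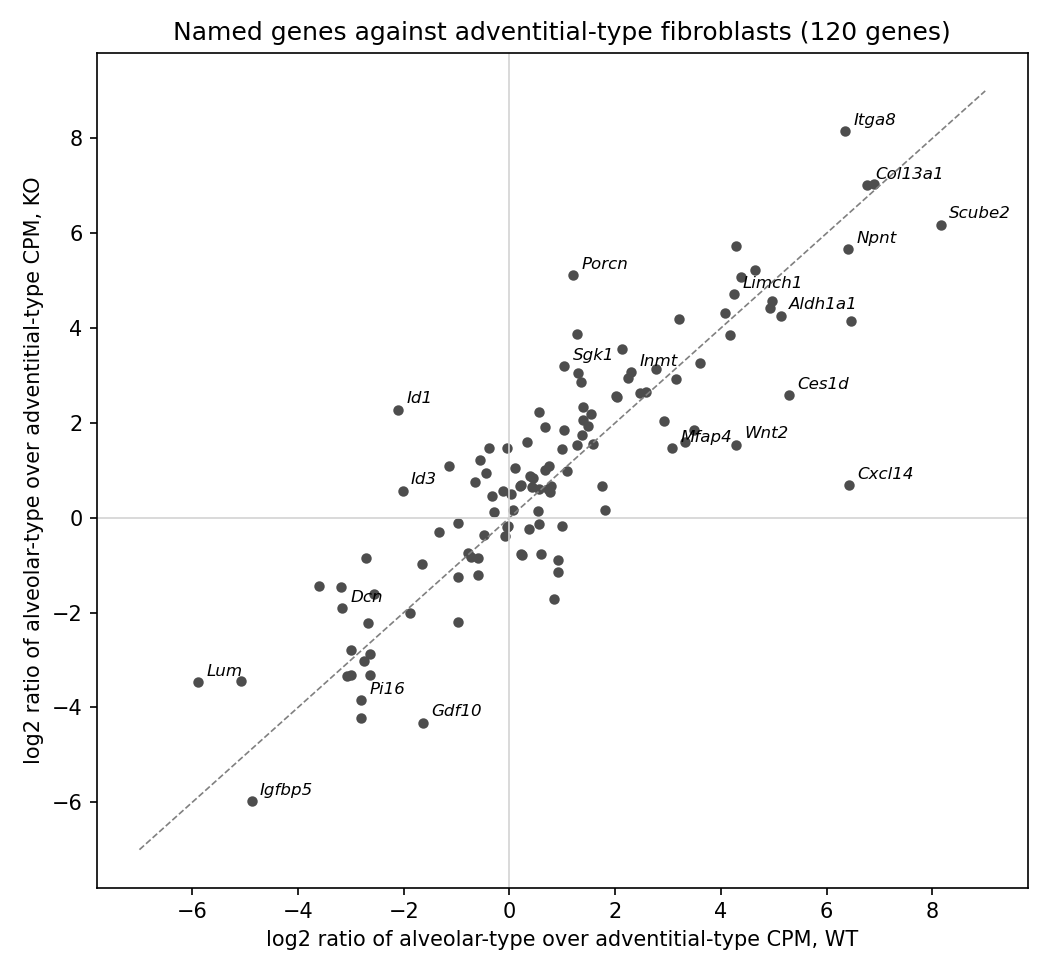
Each point is 1 of 120 named genes, with the log2 ratio of its CPM in members without AT2-rich cells over adventitial-type fibroblasts in WT on the horizontal and in KO on the vertical axis. Genes on the dashed line have the same ratio in both libraries. Id1 (-2.11 and 2.28) and Id3 lie above it, and Cxcl14 (6.42 and 0.68) and Ces1d below it.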

How the data were processed

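The raw UMI counts per gene and barcode that the authors deposited were used as they stand. Per the submitters' processing notes, Cell Ranger 3.0.1 and the mm10 genome were used. The libraries were 10x Genomics 3' v3, per the labels' protocols. Lungs had been digested with dispase and DNase and cells sorted. Of 3482 WT and 2196 KO barcodes, 2745 and 1326 passed limits of 500 genes or more and 10% mitochondrial UMIs or less. 15.1% and 30.5% exceeded that limit. Libraries held 25667220 and 17864581 UMIs. The 2 libraries share 12 barcodes.

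Members followed a fixed rule on marker UMIs, with no clustering. Doublets were called per library with Scrublet (scanpy 1.11.5), which marked 37 WT (1.35%) and 12 KO (0.905%) cells, and kept. UMIs were summed over members and scaled to CPM of the class total. Intervals came from scipy 1.17.1. Genes named for KO against WT were the 12 highest and 12 lowest ratios past 1.5-fold with intervals apart at a mean of at least 100 CPM, in members with and without AT2-rich cells. Mitochondrial, ribosomal, haemoglobin, predicted and Y-linked genes and Xist, markers of other classes, and genes more than 5 times as high in AT2-type or endothelial cells were left out. Up to 4 genes per list, 10 each way against adventitial-type cells and 8 by Fano factor were added. Other genes were named as members of a list after their values were seen. Of 500 list genes 495 are in the files. Coordinates are GENCODE M21 (GRCm38), which held 99.0% of 27998 gene identifiers. Promoters are RefSeq. The size rule was tested on simulated counts. The members and lists were chosen with earlier results of these data known. Alternatives varied the filters, thresholds, scaling, weighting and depth, and those that left out AT2-rich members or the highest cell were chosen after the data had been seen.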

Additional observations from a re-analysis of the deposited data

How the results depend on the processing

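No paired analysis was possible because each group is 1 library, so no replicate could be left out. Members without an endothelial UMI made up 1.86% of WT cells and those without AT2-rich cells 2.48%, against 3.17%. In KO the members without AT2-rich cells were 42 of 1326 cells, against 44. Of the genes higher (329) and lower (211) in KO, asking for 2-fold left 179 higher, 4 of 6 markers 213, equal weight per cell 187, thinning to 1500 UMIs 105 and 68 lower, leaving out each gene's highest cell 215, a mean of 100 CPM 133 lower, and leaving out AT2-rich cells 192 higher (147 in female-type and 217 in male-type KO cells). Female-type KO cells had 320 higher with AT2-rich cells and 147 without. Against adventitial-type fibroblasts, thinning left 86 higher (of 291) and 99 lower (of 273), a mean of 100 CPM 161 higher and 2-fold 150 lower.

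Log2 ratios that turned were those of Adm (-0.01 thinned), Dcn (-0.33 with 4 markers, -0.58 and without AT2-rich cells -0.97 in male-type cells), Timp1 (-0.35 and -1.11 in female-type cells) and Fgfr2 (0.74 without AT2-rich cells, 1.09 and 1.15 by sex). Without AT2-rich cells in female-type KO cells they were also Fabp5 (0.61), Grb10 (-0.29), Mgp (-0.53) and Vim (-0.29). The cause was not tested, apart from fewer cells when thinned. Of the other alternatives for single named genes, 1010 kept direction and side and 217 kept direction alone. At 361836 UMIs in KO members, genes under 50 CPM could not be compared.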
